A study of Mus musculus with 4 samples.

Results

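The LSD1 and CoREST complex genes are 10 genes of the 26328 listed in at least 1 of the 4 deposited samples. They were chosen by symbol, matched to their Ensembl gene IDs, and no expression value was used to choose them. Earlier results of these data were known when they were chosen. They are the lysine demethylases Kdm1a and Kdm1b, the CoREST scaffolds Rcor1, Rcor2 and Rcor3, the deacetylases Hdac1 and Hdac2, the accessory subunits Phf21a and Hmg20b, and the recruiting factor Rest. All 10 were listed in every sample, and all 10 passed the filter of 0.5 RPKM (reads scaled to the length of a gene's exons and to the mapped reads of the sample) or more in at least 2 samples.

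RNA-seq was performed on 2 samples of hippocampal poly(A) RNA from wild-type (WT) mice and 2 from Lsd1 knock-in (KI) mice. The mice were all male and on the C57BL/6 strain. In the Lsd1 SA/SA KI mice, alanine takes the place of serine 112 of LSD1 on both alleles. Serine 112 is the residue phosphorylated by the kinase PKCα. The animals of the behavioural tests were littermates 8 to 15 weeks old, and the age of the animals used for RNA is not given separately. The labels do not say whether a sample is 1 animal or a pool.

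LSD1, the product of Kdm1a, is a flavin-dependent enzyme that removes methyl groups from mono- and dimethylated H3K4. It is held on nucleosomes by a CoREST protein, which also binds HDAC1 or HDAC2, so that a single complex removes both acetyl and methyl groups from histone tails. REST is a DNA-binding repressor that recruits this complex to neuronal genes in non-neuronal cells, and it is kept low in mature neurons. In brain, LSD1 also occurs in isoforms made by alternative splicing. The question put to the data was whether the KI changed the RNA of the complex itself.

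The codon of the exchanged residue is shown because it is the difference between the groups. In the coding sequence of the Kdm1a transcript Kdm1a-203, which encodes 853 residues, it is the only serine with a pair of basic residues ahead of it, separated by 1 residue, and another pair directly after it. It lies in exon 1 on the minus strand of chromosome 4 (GRCm38, chr4:136602250-136602252). The window below is wild-type spliced mRNA that runs from exon 1 into exon 2, with the codon of serine 112 in capitals.
Kdm1a serine 112: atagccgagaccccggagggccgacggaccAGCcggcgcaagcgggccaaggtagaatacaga
The bases exchanged in the KI allele are not given in the sources used here. Because the exchange leaves the transcript in place, the level of Kdm1a does not check the genotype of a sample.

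A second stretch is shown because the values below cannot separate LSD1 isoforms. Kdm1a-202 holds an exon of 60 bases, exon 3 of that transcript, which Kdm1a-203 lacks and which adds 20 residues. It lies on the minus strand at chr4:136582040-136582099 (GRCm38), within the coding sequence. The exon is in capitals between 12 bases of the neighbouring exons on each side.
Kdm1a-202 exon 3: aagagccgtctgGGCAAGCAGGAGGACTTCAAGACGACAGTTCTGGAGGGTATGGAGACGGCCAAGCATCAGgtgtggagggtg
The deposited values are 1 per gene and sum the isoforms, so the use of this exon, or of the neuron-specific microexon of LSD1, was not analysed here.

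Paralogs could share reads, and the longest identical stretches between their transcripts are shown for this reason. Rcor1 and Rcor3 share at most 23 bases, in exon 5 of each (chr12:111097569-111097591, plus strand, and chr1:192125891-192125913, minus strand). Rcor1 and Rcor2 share at most 18, in exon 6 of each (chr12:111099955-111099972 and chr19:7271005-7271022, both plus strand), and Hdac1 and Hdac2 at most 17, in exon 3 of each (chr4:129528950-129528966, minus strand, and chr10:36986385-36986401, plus strand). All of these lie in coding exons.
Rcor1 and Rcor3: caagcctttagttttcatgggaa
Rcor1 and Rcor2: ttactactcttggaagaa
Hdac1 and Hdac2: ccagataatatgtctga
Rcor2 and Rcor3 share at most 16 bases and Kdm1a and Kdm1b at most 12, so no pair of paralogs had a long identical stretch in the transcripts compared.

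The samples held from 8827967 mapped reads in WT replicate 2 to 14949756 in KI replicate 2, as worked out from the whole-read steps in the RPKM values. Of the members, Kdm1b in WT replicate 2 had the fewest reads worked out, 72, and Hdac2 in KI replicate 2 the most, 1469. The 72 are a minimum, so Rest in WT replicate 2, with 75, may have had the fewest. The 8 hippocampal markers checked were all measured, and their summed level was 296 to 297 RPKM in WT and 274 to 297 in KI. Of these 8, 1 had both KI samples above both WT samples and 3 had both below (24% and 18.1% of all genes), with a median log2 fold change of -0.07. The summed level of 9 microglial markers was 119 to 122 RPKM in WT and 148 in both KI samples. Of these 9, 6 had both KI samples above both WT samples and 1 had both below (24% and 18.1% of all genes). C1qa, C1qb and C1qc, which lie near Kdm1a, were among the 6. An effect of DNA carried along with the KI allele was not tested. The neuronal sum (857 to 861 in WT, 876 to 893 in KI) was also higher in both KI samples. Of the 6 neuronal markers, Tubb3 alone had both KI samples above and none had both below, with a median log2 fold change of 0.002. Higher in both KI samples, too, were the astrocytic (377 to 387 and 394 to 397), neocortical, thalamic and striatal sums. Not every marker of these lists followed its sum. Both KI samples were above both WT samples for 4 and below for 1 of 6 astrocytic markers (24% and 18.1% of all genes). These counts were 4 and 0 of 7 neocortical, 3 and 2 of 5 thalamic and 5 and 1 of 9 striatal markers. Choroid plexus markers summed to 60.4 RPKM in KI replicate 1 against 14.3 to 19.8 in the other samples. None of the markers was at 0 in a sample. The part of these markers in the values below was not tested, and in bulk tissue fewer cells of a type and less RNA per cell cannot be told apart.

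The complex genes spanned a wide range of levels in the hippocampus. Hdac2 was the highest, with a mean of 20.8 ± 1.32 RPKM over the 4 samples of both genotypes (SD, n = 4), above 82.7% of the genes tested, and Rest was the lowest, with 1.11 ± 0.12 RPKM, above 14.5%. Kdm1a (11.2 ± 0.28 RPKM), Phf21a (8.39 ± 0.43 RPKM) and Rcor3 (7.49 ± 0.52 RPKM) followed Hdac2, and the ranges of these 4 genes over the samples did not overlap with each other. Rcor2 (5.91 ± 0.88 RPKM), Hdac1 (5.79 ± 0.35 RPKM), Hmg20b (5.32 ± 0.34 RPKM) and Rcor1 (5.13 ± 0.28 RPKM) formed a group in which each range overlapped with the next. The order within it was not settled by these samples, as Rcor2 was above Hdac1 in 2 of 4 samples and Hmg20b above Rcor1 in 2 of 4. Rcor3 was above Rcor2 in all 4 samples, although their ranges overlapped. Kdm1b (2.24 ± 0.38 RPKM) stood apart from the genes above it and from Rest below it. These levels are per kb of exon, with the exon lengths used by the authors.

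**Figure D1:**
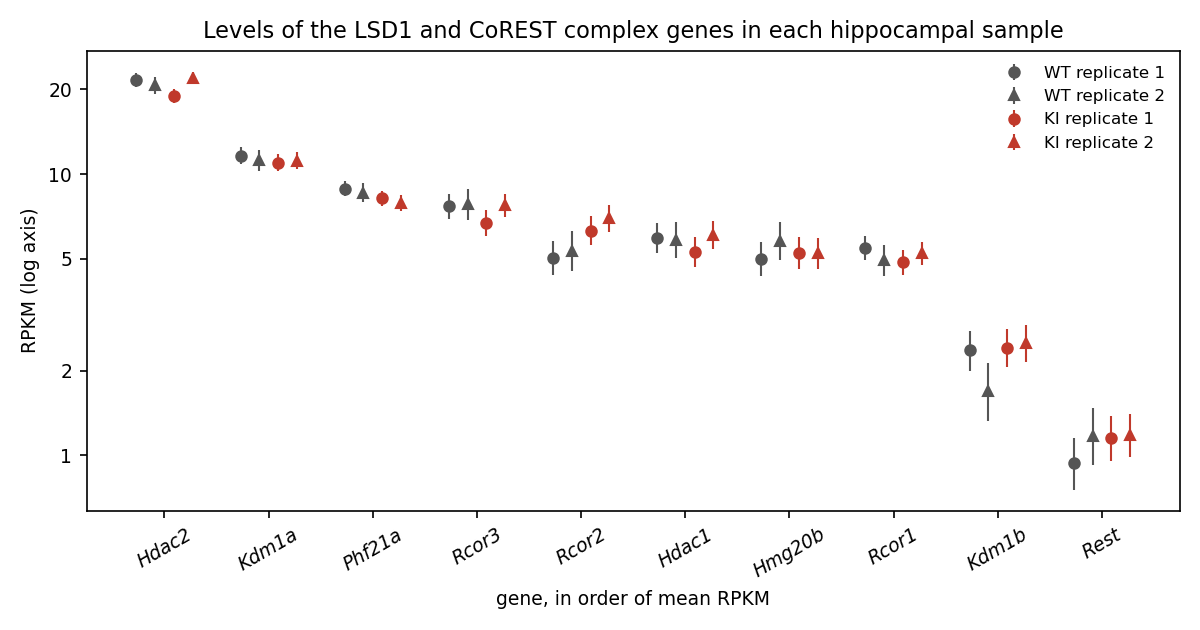
RPKM of each complex gene (vertical log axis) in each of the 4 hippocampal samples, WT in grey and KI in red, with genes ordered by mean. Bars are exact 95% Poisson intervals of the reads behind each value, which cover counting error only. For Kdm1b, Rcor2 and Rcor3 the reads are a minimum, so their bars may be too wide. Hdac2 lies near 20 RPKM and Rest near 1 in all samples, and both KI points of Rcor2 (6.30 and 6.96 RPKM) lie above both of its WT points (5.04 and 5.35 RPKM).

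None of the 10 genes passed the threshold for a difference between KI and WT, which asked for a 1.2-fold change or more and for a Benjamini-Hochberg adjusted p below 0.1 in limma's fit of log2(RPKM + 1) over 18436 genes. Over all genes tested the count was also 0, or 0%, so the members' count says nothing particular about them. At an unadjusted p under 0.05, 1161 of all genes (6.3%) were higher in KI and 613 (3.33%) lower, and of the members 1, Rcor2, was higher and none was lower. With voom on the reads worked out, 213 genes (1.16%) passed the threshold as higher in KI and 70 (0.38%) as lower, and none of them was a member. By position alone, 2 members had both KI samples above both WT samples (Kdm1b and Rcor2) and 2 had both below (Kdm1a and Phf21a), where 24% and 18.1% of all genes did so. The median log2 fold change of the 10 was -0.04, beside 0.01 over all genes tested.

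**Figure D2:**
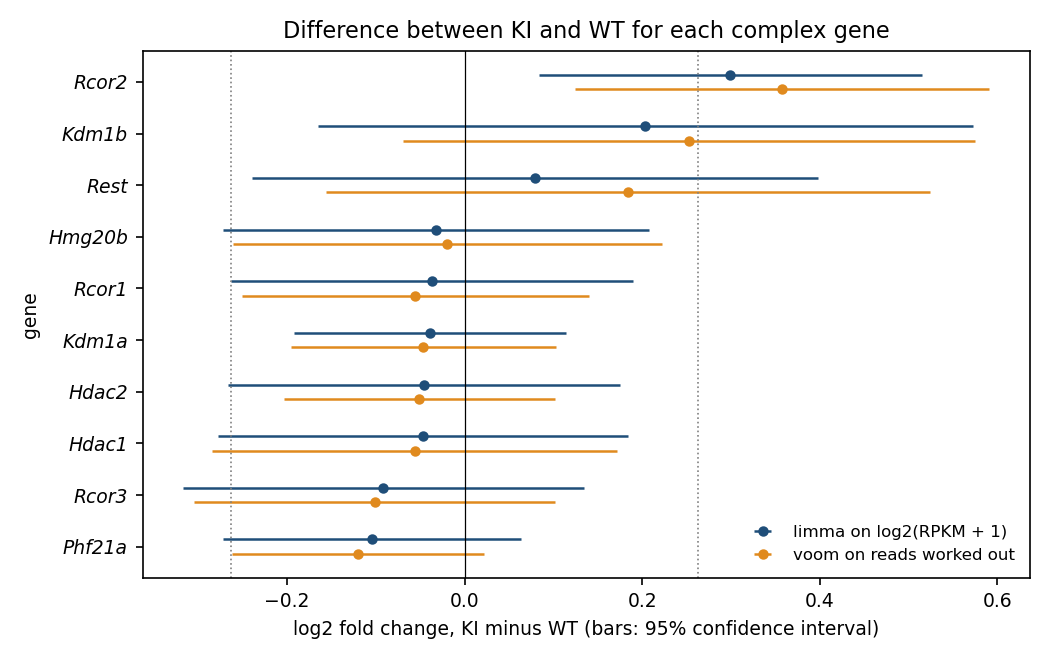
Log2 fold change of KI against WT for each complex gene (horizontal axis, points) with its 95% confidence interval (bars), from limma on log2(RPKM + 1) in blue and from voom on the reads worked out in orange. Dotted lines mark a 1.2-fold change, and only the intervals of Rcor2 lie wholly to the right of 0.

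Kdm1a, the demethylase that carries the KI, had 11.6 RPKM in WT replicate 1 and 11.2 in WT replicate 2, against 10.97 in KI replicate 1 and 11.2 in KI replicate 2. The groups did not overlap, but KI replicate 2 (11.172 RPKM) lay just below WT replicate 2 (11.177 RPKM). The 95% interval of the fold on the log2(RPKM + 1) scale ran from 0.875 to 1.08. These values rested on 511 to 865 reads a sample, and the spread between replicates, 2.81% in WT and 1.3% in KI, was smaller than the counting error.

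Kdm1b (LSD2), the second flavin-dependent H3K4 demethylase of the genome, which does not bind CoREST, was at 2.36 and 1.69 RPKM in WT and at 2.42 and 2.51 RPKM in KI. The groups did not overlap, WT replicate 2 being low and WT replicate 1 close to the KI samples. The log2 fold change was 0.20 (SE 0.14, limma adjusted p = 0.679). It was 0.04 without WT replicate 2 and 0.36 without WT replicate 1, so its size rested on the shallowest sample. The 72 reads there gave an exact 95% Poisson interval of 1.32 to 2.13 RPKM, which did not reach the value of WT replicate 1. The interval of WT replicate 1, 2.00 to 2.77 RPKM, overlapped with that of WT replicate 2. The reads of Kdm1b are a minimum, so both intervals may be too wide. Exons of Dek lie over Kdm1b on the other strand, and no source used here states that counting was by strand.

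Rcor1, the founding CoREST scaffold, had 5.47 and 4.94 RPKM in WT and 4.86 and 5.24 RPKM in KI. The groups overlapped, and the log2 fold change was -0.04 (SE 0.09, limma adjusted p = 0.926). A gene model on the same strand overlaps its exons.

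Rcor2, a paralog that also binds LSD1 and is known from stem cells and neural progenitors, had 5.04 and 5.35 RPKM in WT and 6.30 and 6.96 RPKM in KI. The KI samples were both above the WT samples, by 1.28-fold between the group means. The log2 fold change of 0.30 (SE 0.08, 95% interval 0.08 to 0.51) did not pass the threshold, with a limma adjusted p of 0.454. The voom estimate was 0.36 (SE 0.11, adjusted p = 0.160), which did not pass either. Leaving out each sample in turn gave 0.24 to 0.36. At least 148 reads stood behind each value, and the spread between replicates was 4.18% in WT and 7.01% in KI. Rcor2 has no overlapping exons of another gene.

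Rcor3, the third scaffold, had 7.70 and 7.82 RPKM in WT and 6.72 and 7.74 RPKM in KI. KI replicate 1 was low, and KI replicate 2 lay between the WT samples. The log2 fold change was -0.09 (SE 0.09, limma adjusted p = 0.771), and it was -0.0024 without KI replicate 1 and -0.18 without KI replicate 2. Gene models on the other strand overlap its exons.

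Summed over the 3 scaffolds, the samples had 18.2 and 18.1 RPKM in WT and 17.9 and 19.9 RPKM in KI. Rcor2 made up 27.7% and 29.5% of this sum in WT and 35.2% and 34.9% in KI. Rcor1 made up 30.04% and 27.3% in WT and 27.2% and 26.3% in KI, and Rcor3 made up 42.3% and 43.2% in WT and 37.6% and 38.8% in KI. Rcor3 was thus the largest share in all 4 samples, Rcor2 took a larger share in both KI samples than in either WT sample, and the other scaffolds a smaller one. The shares add up to a whole, so a larger share of Rcor2 makes the others smaller together. In RPKM the groups overlapped for Rcor1 and for Rcor3.

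The deacetylases showed no separation of the groups. Hdac1, the partner that joins CoREST to histone deacetylation together with Hdac2, had 5.93 and 5.85 RPKM in WT and 5.29 and 6.08 RPKM in KI. Hdac2, the deacetylase best known as a brake on memory in mouse brain, had 21.6 and 20.7 RPKM in WT and 19.0 and 22.0 RPKM in KI. For both genes KI replicate 1 was the lowest sample and KI replicate 2 the highest. The log2 fold change was -0.05 (SE 0.09, limma adjusted p = 0.905) for Hdac1 and -0.05 (SE 0.08, limma adjusted p = 0.900) for Hdac2. Hdac1 lies 7.01 Mb from Kdm1a on chromosome 4, and an effect of DNA carried along with the KI allele was not tested.

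Phf21a (BHC80), the subunit that reads unmethylated H3K4, had 8.87 and 8.59 RPKM in WT and 8.21 and 7.89 RPKM in KI. The groups did not overlap, KI being lower by less than 1.2-fold, and the log2 fold change was -0.10 (SE 0.06, limma adjusted p = 0.643). It kept this direction with each sample left out, from -0.13 to -0.08. Hmg20b (BRAF35), an HMG-box subunit, had 4.99 and 5.79 RPKM in WT and 5.26 and 5.23 RPKM in KI. Its KI samples lay between the WT samples, and the log2 fold change was -0.03 (SE 0.09, limma adjusted p = 0.940).

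Rest, the repressor that brings the complex to neuronal genes, had 0.939 and 1.18 RPKM in WT and 1.16 and 1.19 RPKM in KI. WT replicate 1 was the low sample, and the KI samples lay around the value of WT replicate 2. The log2 fold change was 0.08 (SE 0.12, limma adjusted p = 0.875), and its 95% interval, from 0.847 to 1.32 as a fold, left a change of 1.2-fold upward undecided. The same held for Kdm1b (0.892 to 1.49) and Rcor2 (1.06 to 1.43). A 1.2-fold fall was undecided for Rcor3 (lower end 0.803), Hdac1 (0.825), Phf21a (0.828), Hmg20b (0.828), Hdac2 (0.831) and Rcor1 (0.833). Only the interval of Kdm1a (0.875 to 1.08) stayed within 1.2-fold in either direction. A value of Rest rested on 75 to 128 reads, and a fold on the log2(RPKM + 1) scale understates a change at such a level. The interval of Rest on this scale therefore does not exclude a 1.2-fold fall in RPKM.

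The balance within the complex was compared by 5 ratios of RPKM, each formed within a sample. With 2 samples a group, the smallest p of a two-sided exact permutation test is 0.333, so no ratio could pass. Hdac2 exceeded Hdac1 3.64-fold and 3.53-fold in WT and 3.59-fold and 3.61-fold in KI, and the groups overlapped (exact permutation p = 1). This was the steadiest of the ratios, although Hdac1 varied by 9.82% and Hdac2 by 10.2% (SD as a share of the mean) between the KI samples. Kdm1a exceeded Kdm1b 4.92-fold and 6.62-fold in WT and 4.53-fold and 4.46-fold in KI.

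The ratio of Rcor2 to Rcor1 was 0.922 and 1.08 in WT and 1.30 and 1.33 in KI. Both KI samples were above both WT samples, with a log2 difference of 0.39 (exact permutation p = 0.333, Benjamini-Hochberg adjusted p = 0.556 over the 5 ratios). That of Rcor3 to Rcor1 was 1.41 and 1.58 in WT and 1.38 and 1.48 in KI, and overlapped (exact permutation p = 0.667, adjusted p = 0.833). Kdm1a relative to the summed scaffolds was 0.639 and 0.617 in WT and 0.613 and 0.560 in KI. Both KI samples were below both WT samples for this ratio and for Kdm1a to Kdm1b, with log2 differences of -0.10 and -0.34 (exact permutation p = 0.333 and adjusted p = 0.556 for each). The first was -0.034 without KI replicate 2 and -0.16 without KI replicate 1, and the second -0.13 without WT replicate 2 and -0.56 without WT replicate 1. In every sample the scaffolds together thus had more RPKM than Kdm1a.

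**Figure D3:**
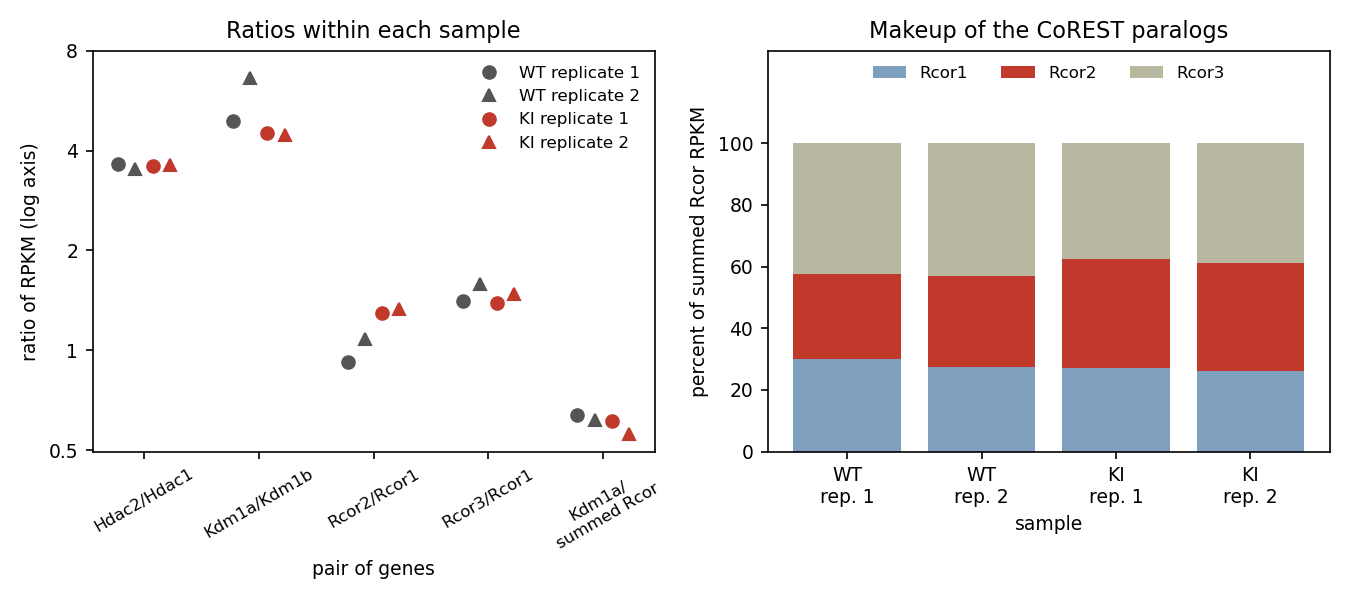
Left, 5 ratios of RPKM within each sample (log axis), WT in grey and KI in red. Right, percent of the summed Rcor1, Rcor2 and Rcor3 RPKM taken by each paralog (stacked bars from 0 to 100) in each sample, where Rcor2 takes 27.7% and 29.5% in WT and 35.2% and 34.9% in KI.

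The genes around the complex were described by 7 lists, of which 97 genes were tested. None passed the threshold with limma or with voom. At an unadjusted p under 0.05, 4 were higher and 4 lower in KI, beside the 6.3% and 3.33% of all genes. Their median log2 fold change was -0.002 (0.013 over all genes). Of the 97, 20 had both KI samples above both WT samples and 28 had both below, where 24% and 18.1% of all genes tested did so.

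Other proteins found with LSD1 and CoREST, such as the zinc finger proteins and the corepressors CtBP, had a median log2 fold change of 0.01 over 13 tested genes, with 3 above and 3 below in both KI samples (24% and 18.1% of all genes). Ctbp1, a corepressor and the most abundant of them, had 54.2 and 57.2 RPKM in WT and 54.8 and 57.0 RPKM in KI. Zfp217, a zinc finger protein of the complex, had the largest log2 fold change, 0.25 (limma adjusted p = 0.576), from 0.838 and 0.793 RPKM in WT to 1.28 and 1.05 RPKM in KI. Gfi1, a DNA-binding partner known from blood cells, was not analysed here, and its paralog Gfi1b was listed in KI replicate 2 alone.

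Hdac1 and Hdac2 also serve other complexes, and these showed no gene past the threshold. Of the 13 NuRD genes, which encode the nucleosome remodelling deacetylase, 2 had both KI samples above both WT samples and 7 had both below (24% and 18.1% of all genes), with a median log2 fold change of -0.05. Its remodelling ATPase Chd3 was the highest, with 113.2 and 114.9 RPKM in WT and 99.4 and 108.7 RPKM in KI. Cdk2ap1, a small NuRD subunit, had 4.10 and 5.18 RPKM in WT and 6.61 and 5.85 RPKM in KI (log2 fold change 0.36, limma adjusted p = 0.493). Gatad2b, the p66β subunit, had 23.9 and 22.2 RPKM in WT and 20.6 and 19.4 RPKM in KI (log2 fold change -0.19, limma adjusted p = 0.490). Both of these genes, and Mta2, were among those with an unadjusted p under 0.05.

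Of the SIN3 genes, 13 were tested, with a median log2 fold change of 0.004, 3 above and 4 below in both KI samples (24% and 18.1% of all genes). Sin3a, the scaffold of that complex, had 9.72 RPKM in both WT samples and 8.25 and 8.71 RPKM in KI (log2 fold change -0.18, limma adjusted p = 0.501), the smallest value of its list. Sap30, a SIN3 subunit, had the largest log2 fold change, 0.14 (limma adjusted p = 0.704), with overlapping groups. Suds3, the most abundant, was at 36.4 and 34.2 RPKM in WT and 36.1 and 37.2 RPKM in KI, with overlapping groups.

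The 6 genes of MiDAC, the mitotic deacetylase complex, and of the MIER proteins had a median of -0.07. They ran from Trerf1 (log2 fold change -0.13, limma adjusted p = 0.587) to Dnttip1 (0.03, limma adjusted p = 0.918), a MiDAC subunit that was also their most abundant gene with 9.40 to 9.77 RPKM over the 4 samples. HDAC3, genes of its corepressor complex and the remaining class I deacetylase had a median of -0.03 over 7 genes. Ncor1, a corepressor of that complex, had 28.4 and 26.9 RPKM in WT and 25.3 and 24.6 RPKM in KI (log2 fold change -0.14, limma adjusted p = 0.516). Gps2, a subunit of the same complex, had 14.8 and 16.0 RPKM in WT and 16.9 and 17.8 RPKM in KI (0.17, limma adjusted p = 0.522). Ncor1 and Gps2 are named because they had the smallest and the largest log2 fold change of this list.

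REST cofactors and regulators, 14 genes, had a median of 0.01. Btrc (β-TrCP), the ubiquitin ligase subunit that marks REST for degradation, had 22.0 and 24.3 RPKM in WT and 19.2 and 20.2 RPKM in KI, and both KI samples were below both WT samples (log2 fold change -0.22, limma adjusted p = 0.489, voom adjusted p = 0.113). Smarce1, a subunit of the BAF remodelling complex, was the largest, 0.11 (limma adjusted p = 0.661), and Smarcc2 of the same complex the most abundant, at 75.5 to 78.3 RPKM.

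Of 32 genes known as REST targets, 31 were tested, with a median log2 fold change of 0.004, 5 with both KI samples above and 7 with both below (24% and 18.1% of all genes). Glra1 did not pass the filter. Chrm4, a muscarinic receptor gene and a classical target, had the largest value, with 6.98 and 6.92 RPKM in WT and 8.49 and 8.92 RPKM in KI (log2 fold change 0.29, limma adjusted p = 0.398). Its groups did not overlap. Chrm4 is also a gene of striatal neurons, and the 9 striatal markers summed to 41.6 to 43.9 RPKM in WT and 46.9 to 49.6 RPKM in KI, whose part in this value was not tested. Calb1, the calcium-binding protein of dentate granule cells, had the smallest, -0.29 (limma adjusted p = 0.658), with 24.4 and 21.8 RPKM in WT and 15.6 and 22.6 RPKM in KI, where KI replicate 1 alone was low. Snap25, a synaptic fusion protein and the most abundant, differed by 0.04 (limma adjusted p = 0.824). Tubb3 and Chga were the other targets with an unadjusted p under 0.05, both higher in KI. Tubb3 is also the neuronal marker named above.

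**Figure D4:**
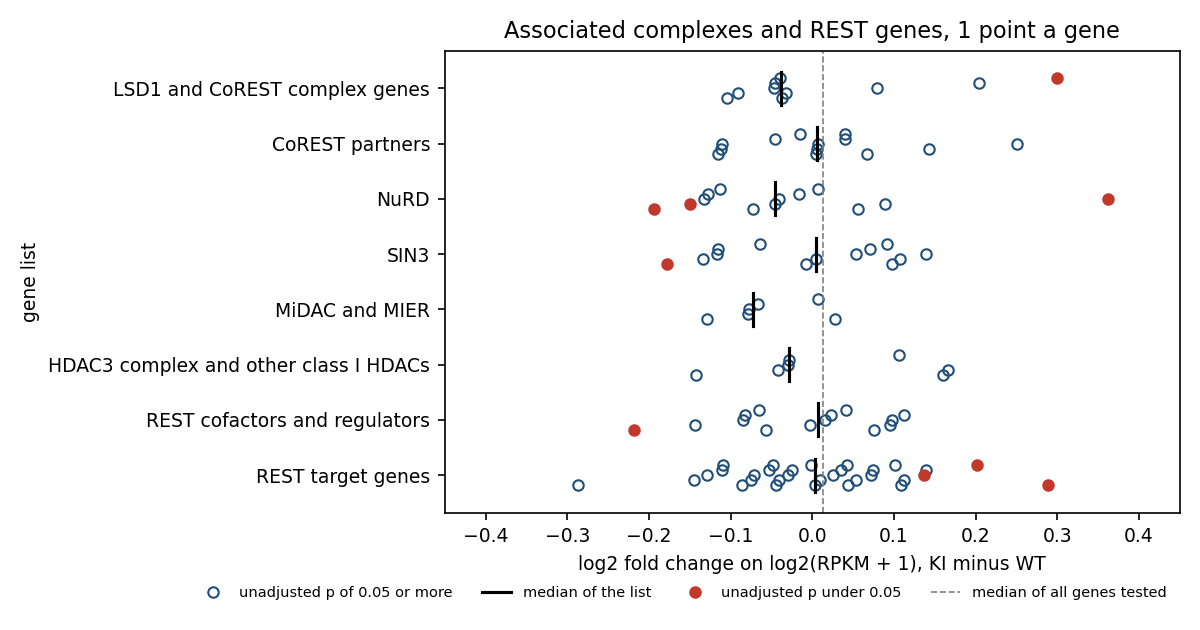
Log2 fold change of KI against WT on the log2(RPKM + 1) scale (horizontal axis), 1 point a gene, for the complex genes and the 7 lists around them. Short vertical bars are list medians, which lie between -0.07 and 0.01, the dashed line is the median of all genes tested, and filled points have an unadjusted p under 0.05.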

How the data were processed

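The authors sequenced hippocampal poly(A) RNA in paired-end mode, aligned it to mm10 with GSNAP (listed with CASAVA in the submitters' processing notes), used only uniquely and properly mapped pairs, and deposited RPKM per gene for each sample. A gene missing from a file was given 0. The members and the gene lists were chosen with earlier results of these data known. Groups were compared with limma 3.58.1 (R 4.3.3) on log2(RPKM + 1) with a mean-variance trend over the 18436 genes that reached 0.5 RPKM in 2 or more samples. Such fold changes understate those of low genes. Nothing states that the samples of a group are separate animals, so p-values may measure technical spread only.

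RPKM steps gave whole reads for 26327 of 26328 genes (tolerance 0.0001 of a read). Where exon lengths of GENCODE M21 (GRCm38) did not give them (Kdm1b, Rcor2 and Rcor3 among the members), the smallest length that did was used, and reads are a minimum. Whether a read or a pair was counted could not be told. voom on these reads was added after seeing the data. Named genes are the members and, of each list, those past the threshold in limma, or else those with the largest and smallest log2 fold change and the highest mean. Mta2, Tubb3, Chga, Gfi1, Gfi1b and Glra1 were named after their values were seen. Of the genes this rule names, 2 are not reported here. Sequences come from GENCODE M21 transcripts. The code was tested on simulated data. Python 3.11.15, pandas 2.3.3 and scipy 1.17.1 were used.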

Additional observations from a re-analysis of the deposited data

How the results depend on the processing

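The count of members past the threshold was 0 under every alternative run. Over all genes the count was 1 with at least 10 reads in every sample, 20 without the mean-variance trend and 283 with voom. Samples with the same replicate number showed no shared deviation from their group means (correlation -0.025 over 18436 genes). This cannot show whether the samples were paired by litter or preparation. With the number as a block, limma called 0 genes, limma with at least 10 reads 51, and voom 442, of which 1, Calb1, was in the lists around the complex. Without the block, no gene of these lists passed under any alternative. With 1 sample left out, the log2 fold change kept its sign for Kdm1a (-0.065 to -0.013), Kdm1b (0.043 to 0.36), Rcor2 (0.24 to 0.36), Phf21a (-0.13 to -0.079) and Rcor3 (-0.18 to -0.0024, near 0 without KI replicate 1). It ran from -0.098 to 0.024 for Rcor1 (reversed without WT replicate 1, 0.024, and without KI replicate 1, 0.0086), from -0.13 to 0.039 for Hdac1 and from -0.15 to 0.053 for Hdac2 (both reversed without KI replicate 1), from -0.12 to 0.058 for Hmg20b (without WT replicate 2) and from -0.0040 to 0.16 for Rest (without WT replicate 1). Under the other alternatives no member reversed. The log2 difference of the ratio ran from -0.016 to 0.030 for Hdac2 to Hdac1 and from -0.14 to 0.024 for Rcor3 to Rcor1, both reversed without WT replicate 2, from -0.56 to -0.13 for Kdm1a to Kdm1b, from -0.16 to -0.034 for Kdm1a to the summed scaffolds and from 0.28 to 0.51 for Rcor2 to Rcor1. The members above in KI numbered 2 to 5 and those below 2 to 6 with 1 sample left out. Such counts can only stay or rise, as fewer values have to be separated. The share over all genes was not worked out for these settings, so the counts say nothing particular about the members. The causes of the other changes were not tested. The reads of Rest and Kdm1b limit their precision.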

Other observations

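The deacetylases outside class I, which do not belong to the CoREST complex, and the NAD-dependent sirtuins were looked at after the results above were seen. None of the 7 genes of the first kind passed the threshold. Hdac11, the only class IV deacetylase and the most abundant of them, had 43.6 and 46.4 RPKM in WT and 52.9 and 51.6 RPKM in KI. Both KI samples were above both WT samples (log2 fold change 0.21, limma adjusted p = 0.426, voom adjusted p = 0.077), and the change was under 1.2-fold. Hdac10, a polyamine deacetylase, had 5.49 and 5.60 RPKM in WT and 4.71 and 4.83 RPKM in KI (-0.18, limma adjusted p = 0.518). Hdac11 was thus higher in all 4 samples than Hdac2, the most abundant deacetylase of the complex.

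None of the 7 sirtuins passed either. Sirt4, a mitochondrial sirtuin, had 7.21 and 7.04 RPKM in WT and 8.09 and 8.98 RPKM in KI (0.23, limma adjusted p = 0.490). Sirt2, the most abundant and a gene of oligodendrocytes, had 36.5 and 41.4 RPKM in WT and 40.8 and 34.4 RPKM in KI, and the summed oligodendrocyte markers ranged from 856 to 975.3 RPKM in WT and from 819 to 1079 in KI. For Sirt2 and for this sum the groups overlapped.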
